A study of Mus musculus with 6 samples.

Results

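The genes of MHC class II antigen presentation and Cd207, which marks Langerhans cells, were followed in CD34-positive stem cells of the mouse hair follicle. The set held 8 genes, chosen by name with earlier results of these data known. They were the class II chains H2-Aa, H2-Ab1 and H2-Eb1, the invariant chain Cd74, the peptide exchange subunits H2-DMa and H2-DMb1, the class II transactivator Ciita, and Cd207. All 8 were among the 36528 Entrez identifiers listed, and all 8 passed the filter on low counts that left 15132 genes for testing.

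The cells were sorted by flow cytometry from skin as CD49f-positive, CD34-positive and GFP-negative. All mice carried the receptor for diphtheria toxin (DT) together with eGFP at Lgr5, so that DT acts on cells that express Lgr5. There were 3 libraries from mice given DT and 3 libraries from mice of the same line given saline. There was no group without the receptor that received DT, and the labels state no dose, time after DT, age or strain background. Separate animals behind the libraries are also not stated, and a p-value here reflects only how far the libraries of a group vary, which may be technical.

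MHC class II molecules are pairs of an alpha and a beta chain that carry peptides from endosomes to the cell surface, where CD4 T cells read them. The invariant chain Cd74 escorts the new pair and blocks its groove, and H2-DM, a pair of H2-DMa and H2-DMb1, exchanges the last piece of the invariant chain for a peptide. In skin, class II is carried at high levels by Langerhans cells, the dendritic cells of the epidermis and upper hair follicle, which alone among epidermal cells make langerin, the product of Cd207. Keratinocytes carry little class II at rest and can be induced to make it by interferon gamma, which acts through Ciita. Ciita binds no DNA itself but joins the factors RFX, CREB and NF-Y on the X and Y boxes just before the start of class II genes.

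The sequences between positions -110 and -31 of 3 members are shown because the X and Y boxes lie there. They are given 5′ to 3′ on the strand of the gene from RefSeq on GRCm38.p6, with the matches to the X box and to the Y box core (ATTGG, or CCAAT on the other strand) in capitals.
H2-Eb1: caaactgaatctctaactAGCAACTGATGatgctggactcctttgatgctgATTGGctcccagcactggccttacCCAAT
H2-DMb1: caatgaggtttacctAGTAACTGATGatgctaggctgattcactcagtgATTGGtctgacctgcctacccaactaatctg
H2-Aa: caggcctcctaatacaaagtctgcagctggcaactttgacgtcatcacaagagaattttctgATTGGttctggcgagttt
These stretches lie at chr17:34305757-34305836 on the plus strand, chr17:34153081-34153160 on the plus strand and chr17:34287854-34287933 on the minus strand, in the order shown. H2-Eb1 had an X box at position -92 and a Y box core at -59, with 22 bases between them, and a further CCAAT at -35. H2-DMb1 had an X box at -95 and a Y box core at -61, with 23 bases between them. H2-Aa had a Y box core at -48 and no match to the X box as searched. Of all 32851 RefSeq windows of the same length (250 bases before to 50 after a start), 0.968% held this X box on either strand, 37.4% held a Y box core and 0.387% held both. The windows of 5 members were searched, 6 windows in all. The 2 windows of H2-DMa held no X box and 1 Y box core, at -198 of the second window, and that of Cd207 held neither. No window was searched for H2-Ab1, Cd74 and Ciita. A match is a description of the letters and not a measured binding site.

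The libraries held 15300755 to 25558859 reads in genes, and DT library 2 was the shallowest. Of the genes tested, 2600 were higher and 1795 lower in DT. The first axis of variation (71.3% of the variance of log2 CPM) separated DT from saline libraries, while the following axis (11.8%) placed saline library 1 at 35.1 and saline libraries 2 and 3 at -14.4 and -23.9. Lgr5, where the toxin receptor is carried, was at 7.11 ± 0.143 CPM in DT and 24.0 ± 7.20 CPM in saline libraries (SD, n = 3 each). The sorted cells were strong in their defining genes in both groups: the bulge keratin Krt15 was at 33362 ± 9506 CPM in DT and 34813 ± 6584 CPM in saline libraries, and Cd34 at 2348 ± 403 and 2804 ± 355 CPM in DT and saline libraries.

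Between DT and saline libraries, the 3 class II chains and the invariant chain fell together, and the other 4 members did not pass the test. H2-Aa, H2-Ab1, H2-Eb1 and Cd74 were lower in DT by 0.64 to 0.85 on the log2 scale. No member rose past the test, and H2-DMa and Ciita had the opposite sign to the chains. Over all genes 29.0% were called in either direction. Of the 8 members 4 were called lower, where 11.9% of all genes tested were, and 0 were called higher, where 17.2% of all genes were (edgeR quasi-likelihood test, Benjamini-Hochberg adjusted over all 15132 genes). By DESeq2 or limma-voom, 0 members were called higher. The members' median log2 fold change was -0.71, against -0.01 over all genes. Because the members were chosen with earlier results known, these comparisons with all genes describe the set and do not test it. In RNA from sorted bulk cells, fewer cells of a type and less RNA per cell cannot be told apart.

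**Figure D1:**
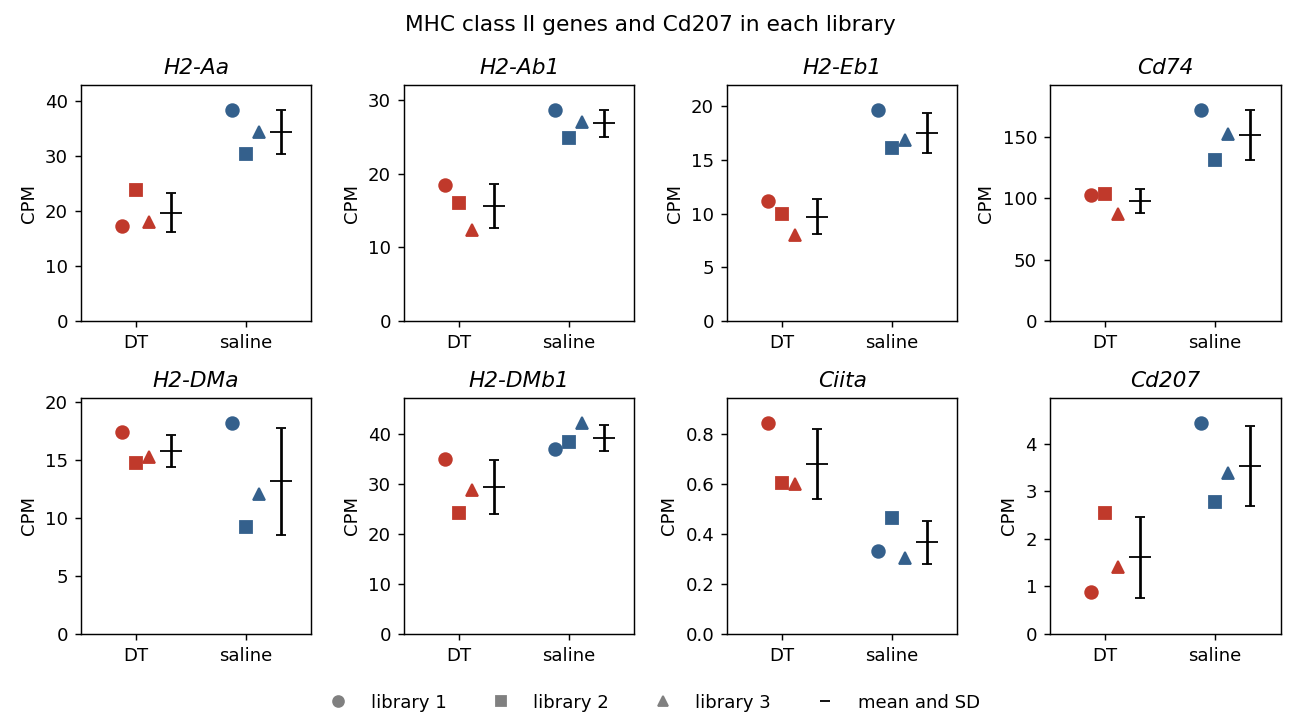
Level of each of the 8 genes in CPM (read counts scaled by library size after TMM, linear axis from 0) in the 3 DT and the 3 saline libraries, with the mean and SD of each group. The DT libraries lay below the saline libraries for H2-Aa, H2-Ab1, H2-Eb1, Cd74, H2-DMb1 and Cd207, above them for Ciita, and among them for H2-DMa. Over all genes tested, all DT libraries lay below all saline libraries for 20.5% and above them for 25.4%.

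H2-Aa (Entrez 14960, chromosome 17 from 34282744 to 34287823 of GRCm38, as all positions here), the alpha chain of the I-A molecule, was at 17.3, 23.8 and 18.0 CPM in DT libraries 1, 2 and 3, against 38.3, 30.4 and 34.3 CPM in saline libraries 1, 2 and 3. The groups did not overlap, and the highest DT library, library 2, stood nearest to saline. The means were 19.7 ± 3.56 CPM in DT and 34.3 ± 3.93 CPM in saline libraries (SD, n = 3 each), a log2 difference of -0.81 with an SE of 0.18 (adjusted p = 0.01).

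H2-Ab1 (Entrez 14961, chromosome 17 from 34263227 to 34269418), the beta chain that pairs with H2-Aa, was at 18.4, 16.0 and 12.4 CPM in DT libraries 1, 2 and 3, against 28.6, 24.9 and 27.0 CPM in saline libraries 1, 2 and 3. Its groups were also apart, and here DT library 3 was the lowest. On the log2 scale H2-Ab1 fell by 0.78, with an SE of 0.19 (adjusted p = 0.0135). H2-Eb1 (Entrez 14969, chromosome 17 from 34305867 to 34316674), the beta chain of the I-E molecule, was at 11.2, 9.94 and 8.02 CPM in DT libraries 1, 2 and 3, against 19.6, 16.1 and 16.8 CPM in saline libraries 1, 2 and 3. It had the greatest fall of the 4 called members, 0.85 on the log2 scale with an SE of 0.21 (adjusted p = 0.0138).

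Cd74 (Entrez 16149, chromosome 18 from 60803849 to 60812652), the invariant chain, was at 103, 104 and 87.1 CPM in DT libraries 1, 2 and 3, against 172, 131 and 153 CPM in saline libraries 1, 2 and 3. The DT libraries were close to each other and all below the lowest saline library, which was library 2. The means were 98.0 ± 9.47 CPM in DT and 152 ± 20.6 CPM in saline libraries (SD, n = 3 each), a log2 difference of -0.64 with an SE of 0.14 (adjusted p = 0.00978). The microRNA gene Mir5107 lies within Cd74. It was counted at 135, 94 and 151 reads in DT libraries 1, 2 and 3, against 243, 183 and 210 reads in saline libraries 1, 2 and 3. Polyadenylated reads of the host gene and of Mir5107 cannot be told apart in these counts.

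The calls of these 4 falls were sensitive to leaving out DT library 3. Without that library the log2 fold changes were -0.77 for H2-Aa (adjusted p = 0.0515), -0.67 for H2-Ab1 (0.0557) and -0.75 for H2-Eb1 (0.0623). Cd74 was the only member still called (-0.58, adjusted p = 0.0497). With any other library left out, 4 or 5 members were lower. Over all genes, 1795 were lower with all libraries, 1017 without DT library 3 and 996 without DT library 2. The part of fewer libraries and that of DT library 3 itself cannot be told apart. By the numbers in the submitters' sample identifiers, DT libraries 1 and 2 and saline libraries 1 and 2 belong to the larger of 2 runs of numbers. Among these 4 libraries alone, no member passed the edgeR test, and the log2 fold changes were -0.75 for H2-Aa, -0.64 for H2-Ab1, -0.76 for H2-Eb1 and -0.55 for Cd74 (adjusted p = 0.116, 0.149, 0.135 and 0.133). The other run held DT library 3 and saline library 3, which allowed no test.

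The subunits of H2-DM, which edits the peptides bound to class II, did not pass the test. H2-DMb1 (Entrez 14999, chromosome 17 from 34153191 to 34160229) was at 35.0, 24.2 and 28.9 CPM in DT libraries 1, 2 and 3, against 37.1, 38.4 and 42.2 CPM in saline libraries 1, 2 and 3. The groups did not overlap, but DT library 1 came close to saline library 1. Its log2 difference of -0.42, with an SE of 0.17, did not pass (adjusted p = 0.0984), though it did without DT library 1 (-0.57, adjusted p = 0.0312) and when libraries were scaled by size only (-0.52, adjusted p = 0.0436).

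H2-DMa (Entrez 14998, chromosome 17 from 34119693 to 34139101) was at 17.4, 14.8 and 15.3 CPM in DT libraries 1, 2 and 3, against 18.2, 9.21 and 12.1 CPM in saline libraries 1, 2 and 3. The groups overlapped, since saline library 1 was the highest of all 6. The log2 difference was 0.27 with an SE of 0.26 (adjusted p = 0.463), with 0.55 when saline library 1 was left out and 0.07 when saline library 2 was. The annotated span of H2-DMa overlaps that of Brd2, a more abundant chromatin reader gene, which was at 114 ± 18.1 CPM in DT and 115 ± 19.8 CPM in saline libraries, so reads may be shared between them. Per H2-DMb1 read there were 0.499, 0.611 and 0.53 H2-DMa reads in DT libraries 1, 2 and 3, against 0.492, 0.239 and 0.286 in saline libraries 1, 2 and 3. All DT values were above all saline values, with DT library 1 and saline library 1 nearly equal (exact two-sided permutation p = 0.10, the smallest that 3 libraries against 3 allow, and 0.45 adjusted over the 9 ratios computed).

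Ciita (Entrez 12265, chromosome 16 from 10480014 to 10531064), the master switch of class II transcription, was near the limit of detection. It had 18, 9 and 15 reads in DT libraries 1, 2 and 3, against 8, 10 and 7 reads in saline libraries 1, 2 and 3. Scaled for depth, this was 0.844, 0.604 and 0.599 CPM in DT and 0.332, 0.463 and 0.304 CPM in saline libraries. All DT libraries were above all saline libraries, as they were for 25.4% of all genes tested, while all DT libraries were below for 20.5%. The log2 difference of 0.89, with an SE of 0.58, did not pass (adjusted p = 0.276). With DESeq2 and the other alternatives on counts it lay between 0.71 and 1.09. On log2(RPKM + 1) it was 0.06, on a scale where the added 1 far exceeds the level of Ciita, at most 0.116 RPKM. The transactivator was thus higher in the means while its target chains were lower, but a change of Ciita was not detectable at this depth. The annotated span of Ciita overlaps that of Dexi, so reads may be shared between them. Dexi had 33, 44 and 33 reads in DT libraries 1, 2 and 3, against 40, 75 and 46 reads in saline libraries 1, 2 and 3.

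Cd207 (Entrez 246278, chromosome 6 from 83671207 to 83677857), langerin, had 19, 38 and 35 reads in DT libraries 1, 2 and 3, against 107, 60 and 78 reads in saline libraries 1, 2 and 3. This was 0.891, 2.55 and 1.40 CPM in DT and 4.43, 2.78 and 3.39 CPM in saline libraries. The groups did not overlap, but DT library 2 and saline library 2 lay close together. The log2 fold change of -1.15 was larger than that of any class II chain, with a wider error (SE 0.44), and did not pass (adjusted p = 0.0759). It passed without DT library 2 (-1.64, adjusted p = 0.0433), with limma-voom (-1.30, adjusted p = 0.0437) and with consecutive sample identifiers as a pair (-1.22, adjusted p = 0.0439). It also passed with limma on log2(RPKM + 1) (-0.69, adjusted p = 0.0448).

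Per length of gene, Cd74 was the most abundant member in both groups, at 65.2 ± 6.30 RPKM in DT and 101 ± 13.8 RPKM in saline libraries (SD, n = 3 each, the authors' RPKM). In saline libraries H2-DMb1, at 28.7 ± 2.01 RPKM, and H2-Aa, at 27.1 ± 3.12 RPKM, came next and did not differ beyond their spread. They were followed by H2-Ab1 (21.1 ± 1.5 RPKM), then by H2-Eb1 (9.85 ± 1.06 RPKM), H2-DMa (6.65 ± 2.33 RPKM), Cd207 (2.17 ± 0.516 RPKM) and Ciita (0.0512 ± 0.0117 RPKM). In DT libraries H2-DMb1 stood at 21.5 ± 3.54 RPKM, H2-Aa at 15.6 ± 3.09 and H2-Ab1 at 12.3 ± 2.22 RPKM. H2-DMa, at 8.01 ± 0.549 RPKM, was above H2-Eb1, at 5.48 ± 0.841 RPKM, in every DT library, whereas it was below H2-Eb1 in every saline library. Ciita and Cd207 were at the bottom of the order in both groups, at 0.0955 ± 0.0176 and 0.999 ± 0.543 RPKM in DT libraries.

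The chains kept nearly constant proportions in the saline libraries. There were 4.50, 4.31 and 4.45 Cd74 reads per H2-Aa read in saline libraries 1, 2 and 3, and 1.34, 1.22 and 1.27 H2-Aa reads per H2-Ab1 read. The DT libraries were more spread, with 5.95, 4.38 and 4.84 Cd74 reads per H2-Aa read and 0.939, 1.49 and 1.45 H2-Aa reads per H2-Ab1 read in libraries 1, 2 and 3. DT library 1 thus had less H2-Aa, relative to both Cd74 and H2-Ab1, than any other library. Neither ratio was separated by group (exact two-sided permutation p = 0.30 and 1, or 0.45 and 1 adjusted over 9 ratios). For H2-Aa against Cd207, there were 19.4, 9.32 and 12.9 reads per Cd207 read in DT libraries 1, 2 and 3 and 8.64, 11 and 10.1 in saline libraries 1, 2 and 3 (exact p = 0.30, adjusted 0.45).

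The pathway that makes and edits class II molecules did not move as a block. Of 15 partner genes, 10 passed the filter, 1 was lower, 1 was higher and 8 were not called, with a median log2 fold change of -0.30. For this count, and for those of the other lists and the chromosome window below, the shares over all genes tested were 11.9% lower and 17.2% higher. Whether any list departs from these shares was not tested. The gene that fell was Ctss, cathepsin S, the protease of antigen-presenting cells that trims the invariant chain. It was at 0.469, 1.75 and 1.08 CPM in DT libraries 1, 2 and 3, against 4.93, 1.90 and 6.16 CPM in saline libraries 1, 2 and 3 (log2 -2.0, SE 0.56, adjusted p = 0.0239). Saline library 2 was the low one of its group and came close to DT library 2, and the call was lost without DT library 1 or 3 or saline library 3 (adjusted p up to 0.0835).

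Lgmn, the asparagine endopeptidase that starts the cleavage of the invariant chain, rose to 103 ± 14.2 CPM in DT, against 71.1 ± 4.66 CPM in saline libraries (SD, n = 3 each, log2 0.54, SE 0.14, adjusted p = 0.0184). Its call was lost without DT library 3 (adjusted p = 0.0514) or saline library 2 (adjusted p = 0.0828). Ctsl, the cathepsin that does this trimming in epithelial cells of the thymus, was far more abundant per length than Ctss, at 127 ± 26.0 RPKM in DT and 138 ± 18.1 RPKM in saline libraries, where Ctss had 0.763 ± 0.454 and 2.98 ± 1.52 RPKM in DT and saline libraries. Ctsl was not called (log2 -0.11, adjusted p = 0.674). Also not called were the thiol reductase Ifi30 (-0.02, adjusted p = 0.955), the intramembrane protease Sppl2a (0.03, 0.877), and the ubiquitin ligases Marchf1 (-0.13, 0.885) and Marchf8 (-0.46, 0.131), which remove class II from the cell surface. The costimulatory Cd80 had 0.797 to 1.32 CPM in DT and 1.78 to 2.65 CPM in saline libraries, groups apart but not past the test (log2 -0.99, adjusted p = 0.11). Cd86 (-0.80, 0.615) and H2-DMb2, the second H2-DM beta gene (-1.06, 0.462), had wide errors. H2-Oa, H2-Ob and Cd40 were below the count filter, and H2-Eb2 had 0 reads in every library.

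Among 19 regulators of class II transcription, 16 were tested, 2 rose, 1 fell and 13 were not called (median log2 fold change 0.08). Irf1, an interferon-induced factor that can activate a promoter of Ciita, was at 242, 183 and 269 CPM in DT libraries 1, 2 and 3, against 43.9, 55.6 and 56.7 CPM in saline libraries 1, 2 and 3. Its level rose by 2.15 (log2, SE 0.18, adjusted p = 5.75e-05), with DT library 2 the lowest of its group. Nfyb, the NF-Y subunit that helps to bind the Y box, rose by 0.74 (SE 0.14, adjusted p = 0.00417). Its partners Nfya (0.05, adjusted p = 0.885) and Nfyc (0.45, adjusted p = 0.18) did not pass. Prdm1, known as Blimp1 and a repressor of Ciita in plasma cells, was at 15.8, 11.2 and 13.0 CPM in DT libraries 1, 2 and 3, against 34.7, 42.9 and 34.1 CPM in saline libraries 1, 2 and 3. Its log2 difference was -1.48 with an SE of 0.19 (adjusted p = 0.000581).

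The RFX subunits, which bind the X box, were Rfx5 (log2 0.22, adjusted p = 0.436), Rfxank (-0.12, 0.555) and Rfxap (-0.59, 0.116). Rfxap had 3.96 to 4.39 CPM in DT and 5.41 to 7.54 CPM in saline libraries, which did not overlap. Along the interferon gamma route, Ifngr1 (0.04, adjusted p = 0.91), Ifngr2 (0.65, 0.217), Jak1 (0.11, 0.555) and Jak2 (-0.51, 0.127) did not pass. Nor did Creb1 (0.22, 0.254), Irf2 (-0.07, 0.802) or Nlrc5, the transactivator of class I genes (-0.59, 0.0554). Irf4, Irf8 and Spi1, factors of dendritic and other immune cells, were below the count filter.

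**Figure D2:**
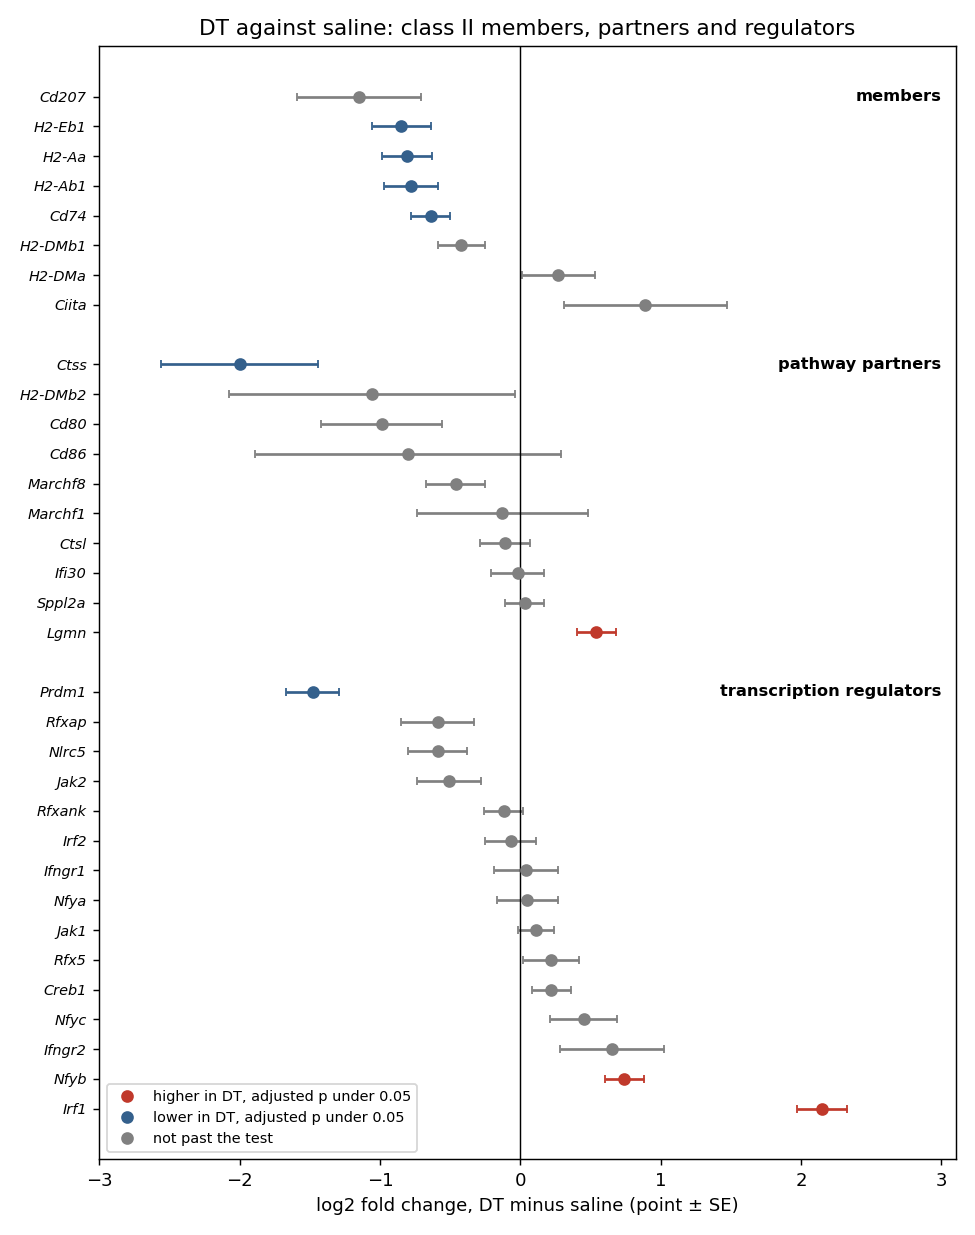
Log2 fold change of DT over saline (horizontal axis, point and SE) for the 8 members, the 10 pathway partners tested and the transcription regulators reported here, coloured by call. H2-Eb1, H2-Aa, H2-Ab1, Cd74, Ctss and Prdm1 were lower and Lgmn, Nfyb and Irf1 higher in DT.

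Along chromosome 17 the chains lie near genes of both signs. The 5 members on chromosome 17 lie between 34119693 and 34316674 of GRCm38, a stretch of 197 kb with 12 genes, of which 10 were tested. This window was chosen after values were seen. Of the 5 tested genes in it that are not members, 2 were higher and 3 were not called. The higher ones were the immunoproteasome subunits Psmb8, at 194 ± 39.5 CPM in DT and 105 ± 12.9 CPM in saline libraries (log2 0.89, SE 0.17, adjusted p = 0.00413), and Psmb9, at 72.0 ± 8.28 and 51.0 ± 3.30 CPM in DT and saline libraries (log2 0.50, adjusted p = 0.0249). Both serve class I presentation, as do the peptide transporter genes Tap1 (0.25, adjusted p = 0.428) and Tap2 (0.57, adjusted p = 0.135) between them and beside them. H2-DMb2 was negative like the chains and not called (-1.06, 0.462).

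**Figure D3:**
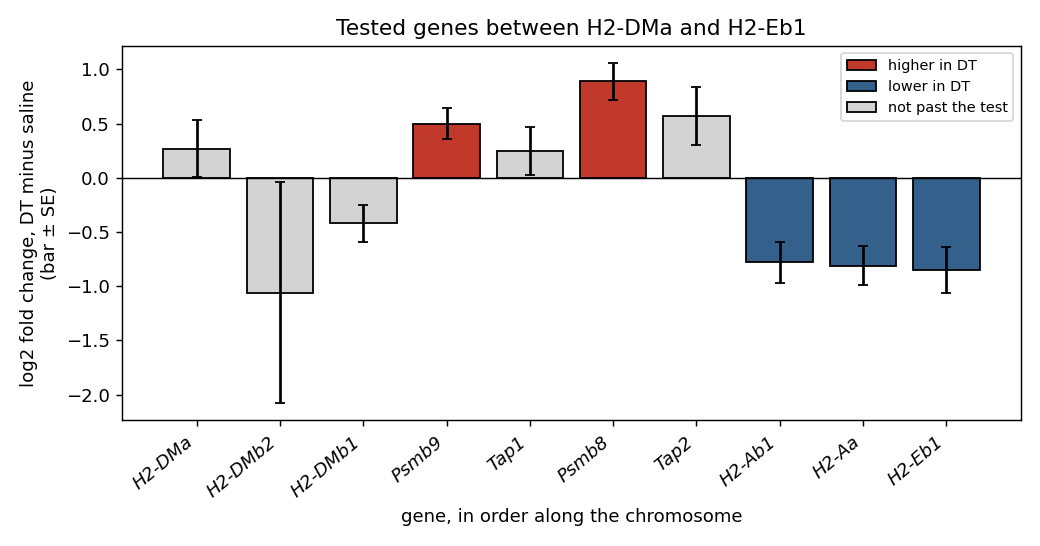
Log2 fold change of DT over saline (bar, with SE) of the 10 tested genes from H2-DMa to H2-Eb1, in their order on chromosome 17. Psmb8 and Psmb9 were higher in DT, and H2-Ab1, H2-Aa and H2-Eb1, which lie next to each other, were lower.

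Other markers of Langerhans and dendritic cells were mostly sparse. Of 16 listed, 8 passed the filter, 1 was higher and 7 were not called (median log2 fold change 0.10). Their summed level was 331 to 374 CPM in DT and 231 to 277 CPM in saline libraries, most of it from Cd24a and Epcam, which keratinocytes also express. Cd24a was the gene that rose (log2 0.82, SE 0.19, adjusted p = 0.0118), and its call was lost without DT library 3 (adjusted p = 0.0521). With no count filter, or without DT library 1 or saline library 2, 1 gene of this list was also lower. The number higher was 2 without saline library 1. Among genes closer to the immune lineage, the colony-stimulating factor receptor Csf1r, on which Langerhans cells depend, was at 1.45, 1.41 and 2.43 CPM in DT libraries 1, 2 and 3, against 1.28, 3.15 and 2.91 CPM in saline libraries 1, 2 and 3. The groups overlapped (log2 -0.46, SE 0.46, adjusted p = 0.48). The integrin Itgae had a log2 fold change of -1.0 (adjusted p = 0.172), the endocytic receptor Ly75 one of 1.17 (0.156), the signal receptor Sirpa one of -0.12 (0.65), Epcam one of 0.27 (0.382), Zbtb46 one of 0.19 (0.789) and Ccr7 one near 0 (0.999). Clec9a had 0 reads in every library, Flt3 had 1 read in all, and Cd209a had 0 reads in every DT library and 13, 2 and 42 reads in saline libraries 1, 2 and 3. Itgax, the CD11c integrin and also below the filter, lay the other way, with 12, 19 and 7 reads in DT libraries 1, 2 and 3, against 0, 2 and 5 reads in saline libraries 1, 2 and 3. For the rest of the list below the filter, reads were summed over each group. Xcr1 had 5 in DT and 35 in saline libraries, Mgl2 1 and 20, Clec10a 3 and 8, and Runx3 11 and 13.

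Of 8 listed ligands and receptors that bear on the supply of Langerhans cells, 4 were tested and 3 were higher. Tgfb1 and Ccl8 were among those below the count filter. With no count filter, with a mean count of at least 10 or without saline library 2, 1 gene of this list was also lower. The number higher was 3 in each of these settings. Csf1, a ligand of Csf1r, was at 49.3, 34.8 and 41.6 CPM in DT libraries 1, 2 and 3, against 8.91, 8.47 and 10.1 CPM in saline libraries 1, 2 and 3 (log2 2.20, SE 0.19, adjusted p = 6.84e-05). Ccl20 and Ccl2, chemokines that draw Langerhans cell precursors to hair follicles, were at 27.2 ± 9.67 and 174 ± 33.0 CPM in DT and at 0.386 ± 0.354 and 2.93 ± 1.94 CPM in saline libraries (adjusted p = 0.000162 and 3.28e-05). Their receptors Ccr6 and Ccr2 were below the count filter, and Ccr2 had 0, 1 and 1 reads in DT libraries 1, 2 and 3, against 30, 0 and 44 reads in saline libraries 1, 2 and 3. Il34, the ligand of Csf1r that keratinocytes supply at rest, was at 121 ± 39.1 CPM in DT and 152 ± 45.6 CPM in saline libraries and was not called (log2 -0.33, SE 0.27, adjusted p = 0.393).

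Some markers of leukocytes at large fell as well, with wide spread among the saline libraries. Of 6 pan-leukocyte markers, 3 were lower and 3 not called (median log2 fold change -1.28): Fcer1g (-1.68, adjusted p = 0.0331), Cd52 (-1.97, 0.0334) and Laptm5 (-1.39, 0.0393). Tyrobp (-1.17, 0.128), Ptprc (-0.92, 0.23) and Coro1a (0.16, 0.678) did not pass. The 3 calls were all lost with limma-voom and when DT library 2, DT library 3 or saline library 1 was left out, and 1 gene was still lower without saline library 3. Of 10 T cell markers, 6 were tested and 3 were lower (median log2 fold change -1.16): Cd3g (-1.75, adjusted p = 0.00806), Cd3e (-1.27, 0.0312) and Cd3d (-2.03, 0.0424). Without any 1 library other than saline library 2, the number lower was 1 or 2. Cd3d and Cd3e were not called with limma-voom (adjusted p = 0.125 and 0.0549) or with consecutive identifiers as a pair (0.0675 and 0.059). Cd2 (-1.05, 0.216), Cd247 (-0.15, 0.797) and Lck (0.38, 0.396) were not called, and the DT libraries were all above the saline libraries for Lck.

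Of 10 macrophage and monocyte markers, 3 were tested: Adgre1 was lower (adjusted p = 0.00479), with 0, 1 and 3 reads in DT libraries 1, 2 and 3, against 70, 14 and 44 reads in saline libraries 1, 2 and 3. The integrin Itgam was higher (adjusted p = 0.0109), with 84, 93 and 48 reads in DT and 0, 12 and 11 reads in saline libraries, and its call was lost without DT library 2 (adjusted p = 0.0638). Adgre1 could pass the count filter only through its saline reads, so its direction is not independent of the filter. With no count filter, Adgre1 (log2 -4.72, adjusted p = 9.44e-05) and Itgam (3.51, 0.0056) were still called. Of the 10 markers then tested, 2 were higher and 1 was lower. Cd68 was not called (log2 -0.18, 0.76). The summed level of this list was 8.30 to 11.7 CPM in DT and 7.03 to 14.5 CPM in saline libraries. None of 4 neutrophil markers passed the filter, with sums up to 0.188 CPM in DT and 0.29 CPM in saline libraries. Of 7 markers of B, mast and NK cells, Nkg7 was tested and not called (-1.44, adjusted p = 0.0855), and Cpa3, Mcpt4 and Ncr1 had 0 reads. Of 10 markers of melanocytes, fibroblasts and endothelium, 6 were tested and 2 were lower, Dct (-2.86, adjusted p = 0.00128) and Col1a2 (-1.22, 0.0079), while Col1a1 (-0.85, 0.191) and Pmel (-0.31, 0.366) were not called. Of 9 keratinocyte and stem cell markers, Krt14 was higher (1.78, adjusted p = 5.16e-05) and Lhx2 (-1.09, 0.00696), Nfatc1 (-0.69, 0.0165) and Sox9 (-0.71, 0.0342) were lower. The call of Sox9 was lost without DT library 2 or 3 or saline library 1 or 2 (adjusted p up to 0.114), and that of Nfatc1 without DT library 2 or 3 (0.0565 and 0.0543).

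**Figure D4:**
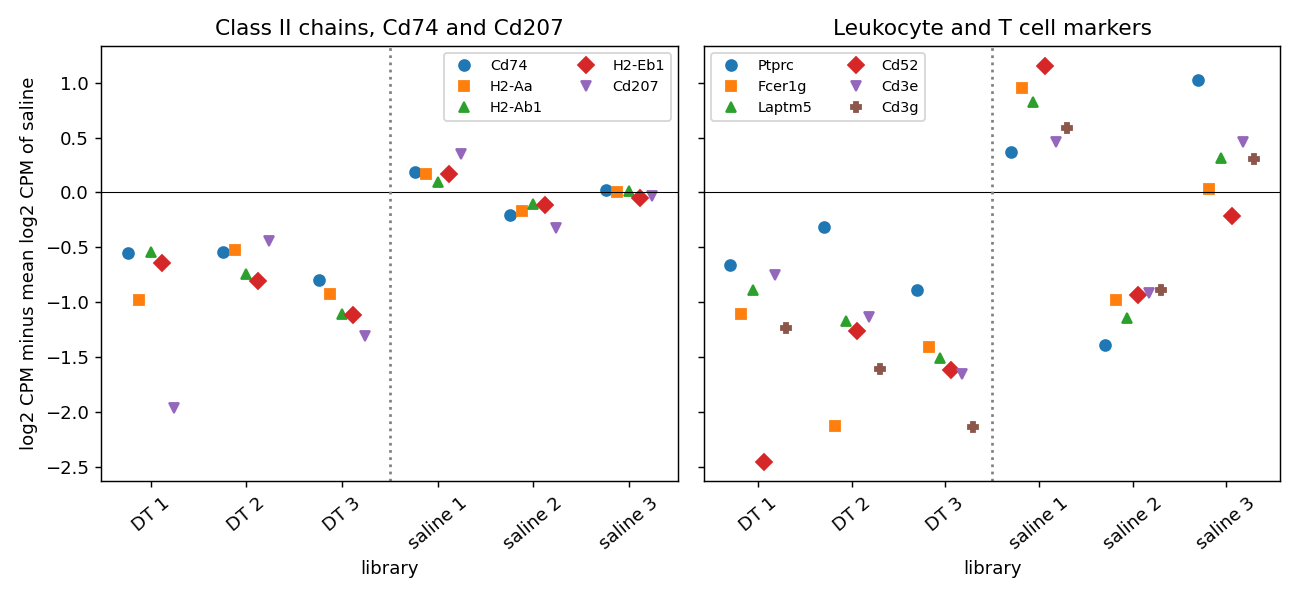
Level of each gene in each library as log2 CPM minus the mean log2 CPM of the 3 saline libraries, for Cd74, the chains and Cd207 (left) and for leukocyte and T cell markers (right). Saline library 2 lies below the other saline libraries in all 6 leukocyte and T cell genes plotted, and near them, above every DT library, in Cd74 and the chains. Tyrobp, for which saline library 2 was the highest saline library, is not plotted. The 6 genes plotted are a selection and do not stand for all tested markers of these lists. In the same lists Coro1a (0.16) and Lck (0.38) had log2 fold changes above 0, and Cd247 had one of -0.15.

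Saline library 2 was the lowest saline library for the 3 chains and Cd74, by a small margin, and for most leukocyte markers, by a wide one, while for Tyrobp it was the highest saline library. Its summed level of pan-leukocyte markers was 14.8 CPM, within the 14.3 to 17.7 CPM of the DT libraries, where saline libraries 1 and 3 had 41.8 and 30.1 CPM. Its T cell markers summed to 22.8 CPM, again within the DT range of 18.6 to 28.2 CPM, where saline libraries 1 and 3 had 60.1 and 55.0 CPM. In the same library Cd74, H2-Aa, H2-Ab1 and H2-Eb1 were at 131, 30.4, 24.9 and 16.1 CPM, above every DT library. The highest saline library exceeded the lowest 1.31 times for Cd74, 1.26 times for H2-Aa, 1.15 times for H2-Ab1 and 1.22 times for H2-Eb1. For Ptprc it did so 5.33 times, for Laptm5 3.92 times and for Cd3g 2.79 times. The part that leukocyte content has in the differences of the chains, Cd74, Cd207 and H2-DMb1 was not tested. For Cd207 the spread was 2.86 times among DT and 1.6 times among saline libraries.

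Counted per Ptprc read, there were 10.2, 11.1 and 12.5 H2-Aa reads in DT libraries 1, 2 and 3, against 11.1, 29.9 and 6.32 in saline libraries 1, 2 and 3. The groups overlapped, and saline library 2 held the highest value (exact two-sided permutation p = 0.80, adjusted 1 over 9 ratios). Per Cd3g read, there were 2.57, 4.6 and 5.01 H2-Aa reads in DT libraries 1, 2 and 3, against 1.61, 3.58 and 1.76 in saline libraries 1, 2 and 3 (exact p = 0.20, adjusted 0.45).

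The genes with a profile most like that of the mean of Cd74, H2-Aa, H2-Ab1 and H2-Eb1 were sought over all genes tested and the 6 libraries. Likeness was the root mean square difference of log2(CPM + 0.1), each centred on its mean over the libraries. The 6 nearest genes with a name were Rrm2b (0.044), which encodes a subunit of ribonucleotide reductase, Rsbn1l (0.052), Dixdc1 (0.06), which encodes a DIX domain protein, Asph (0.07), an aspartyl hydroxylase, Pced1a (0.076) and H2-Eb1 itself (0.078). The order was Cd74 in rank 9 and H2-Ab1 in rank 11 among all genes, with unnamed and predicted genes included. H2-Aa was in rank 61, H2-DMb1 in rank 1589, Cd207 in rank 6119, H2-DMa in rank 8987 and Ciita in rank 11982. Cd74, H2-Aa, H2-Ab1 and H2-Eb1 are part of the mean they were ranked against, which favours their ranks. H2-DMb1, Cd207, H2-DMa and Ciita are not part of it, so the ranks of these groups are not comparable.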

How the data were processed

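Polyadenylated RNA of 6 sorted cell samples, 3 DT and 3 saline, was sequenced. Reads were aligned with GSNAP to GRCm38, per the submitters' processing notes, and each deposited count gives the uniquely aligned reads of 1 gene model, per the file headers. RPKM was adjusted by the authors with a size factor, per the file headers, and was a rescaling of the counts. Aligner version, annotation and strand use: not given in the sources used here. Reads with several alignments are missing from the counts, which lowers genes with close copies. Symbols and coordinates came from RefSeq GRCm38.p6, which names 31049 of 36528 identifiers.

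The main test on counts was that of edgeR 4.0.16, run under R 4.3.3 (filterByExpr with a minimum count of 10 and total of 15, TMM scaling, robust quasi-likelihood test with no covariates, with genes called at an adjusted p under 0.05). A log2 fold change above 0 means higher in DT. CPM is scaled to the reads in tested genes after TMM. Libraries were numbered in the order of their records, so numbers do not pair them. Exact permutation tests of ratios used log2 values. Alternatives used limma 3.58.1, on log2(RPKM + 1) and with voom, and DESeq2 1.42.0. Genes named by rule were all members, called members of the partner, regulator, Langerhans and supply lists, up to 4 of smallest p from the other lists, and the 6 nearest profiles, and other genes of the lists were named after their values were seen. A regulator in the lists is counted but not reported here by name. Members and lists were chosen with earlier results of these data known.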

Additional observations from a re-analysis of the deposited data

How the results depend on the processing

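Of the 8 members 4 were called lower in DT. The number was 4 or 5 under the other size factors, library size alone, no filter or a mean count of at least 10, DESeq2, limma-voom, limma on log2(RPKM + 1), and identifier series or consecutive identifiers as a block. It was 0 within the larger identifier series, which has 4 libraries, and 1 to 5 with each library left out. The number called higher was 0 in all 16 alternatives. No member changed sign. Over all genes, 1097 were higher and 473 lower within the larger series, and leaving out each library gave 1564 to 2826 higher and 996 to 2045 lower. The share of calls that lay higher in DT was 59.2%, and 47.5% with scaling by library size only, which moved the median log2 fold change by -0.098. The cause of these changes was not tested. Where libraries were left out, their smaller number and the choice of those that remained cannot be told apart. The labels give no replicate numbers that pair libraries, and consecutive identifiers, used as a pair in 1 alternative, are only a hint of pairs, with 5 members called lower. With 7 to 18 reads of Ciita and 19 to 107 of Cd207 per library, depth limits what can be said of both.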
